A study of Mus musculus with 4 samples.

Results

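Divergent protein-coding promoters are sites where a gene on the minus strand and a gene on the plus strand start back to back. Among the 4311 peaks of methylated Pontin in glucose-starved mouse embryonic fibroblasts (MEFs), 411 (9.53%) lay at such a site. A peak was taken as a member when its centre was within 1000 bp of the transcription start site (TSS) of a minus-strand protein-coding gene and of a plus-strand protein-coding gene, with the minus-strand TSS to the left and at most 1000 bp between both TSSs. The members made up 12.2% of the 3382 peaks centred within 2.5 kb of any TSS, and the other 2971 of these peaks served for comparison. No value of the peaks entered the choice.

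Pontin (Ruvbl1) is an AAA+ ATPase that works with Reptin (Ruvbl2) in chromatin-modifying assemblies such as the Tip60 acetyltransferase complex and the INO80 and SRCAP remodelers. Divergent promoters are common in mammalian genomes, are mostly CpG-rich, and place both start sites at the edges of a shared nucleosome-depleted region. Housekeeping genes of DNA repair, mitochondria and RNA metabolism are often arranged in this way.

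The series profiled genome occupancy in wild-type MEFs with 4 libraries, namely a ChIP with an antibody to arginine-methylated Pontin and its input chromatin, for cells kept in normal media and for cells starved in glucose-free medium with dialyzed serum. Each condition had 1 library and no replicate, and only the authors' peaks of the starved ChIP, a library of 20765512 tags, have values here. The normal-media ChIP was not analysed here, so no value below compares starved with fed cells. MEFs are cells cultured from embryonic connective tissue, and the peak list holds no expression value with which to check their markers.

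With the closest TSSs that met the rule, the start sites of the members were a median of 85 bp apart. With the farthest such TSSs the median was 392 bp, and which TSS was in use is not known. The bases between the closest TSSs of 8 occupied pairs are shown as the DNA that each gene pair shares by that choice. They belong to the strongest named peaks whose TSSs lay 40 to 250 bp apart with no exon between. They are read on the plus strand of GRCm38 (mm10), from the minus-strand gene on the left to the plus-strand gene on the right. Capitals mark a match to 1 of the 11 motifs searched.
St13/Xpnpep3 (chr15:81400078-81400137): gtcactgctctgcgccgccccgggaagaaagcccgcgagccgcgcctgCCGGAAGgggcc
Ttc13/Arv1 (chr8:124721984-124722138): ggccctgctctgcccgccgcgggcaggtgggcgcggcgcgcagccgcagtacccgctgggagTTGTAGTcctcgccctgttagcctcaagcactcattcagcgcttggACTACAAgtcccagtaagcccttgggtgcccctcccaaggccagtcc
Dcun1d2/Tmco3 (chr8:13288132-13288189): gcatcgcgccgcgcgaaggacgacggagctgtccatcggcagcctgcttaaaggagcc
Mau2/Sugp1 (chr8:70042735-70042812): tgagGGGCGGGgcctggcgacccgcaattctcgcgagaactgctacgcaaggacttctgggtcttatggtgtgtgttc
Pcmt1/Lats1 (chr10:7681137-7681213): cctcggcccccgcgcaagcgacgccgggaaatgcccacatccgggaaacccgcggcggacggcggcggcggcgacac
Cep44/Fbxo8 (chr8:56551048-56551089): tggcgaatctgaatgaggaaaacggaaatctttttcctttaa
Brca1/Nbr1 (chr11:101551956-101552148): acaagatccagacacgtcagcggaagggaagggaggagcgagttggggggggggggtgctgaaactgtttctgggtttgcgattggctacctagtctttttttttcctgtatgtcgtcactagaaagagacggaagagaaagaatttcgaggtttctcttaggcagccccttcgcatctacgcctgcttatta
Rpl9/Lias (chr5:65391445-65391496): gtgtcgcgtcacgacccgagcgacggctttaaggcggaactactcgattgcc

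The segment between St13, a cofactor of the Hsp70 chaperone, and Xpnpep3, a mitochondrial aminopeptidase, is 60 bases long, 76.7% G and C, and holds the ETS motif CCGGAAG near its Xpnpep3 end. The Ttc13/Arv1 segment of 155 bases holds the ZNF143 motif ACTACAA in both orientations. The segment of Mau2, the cohesin-loading partner of Nipbl, and Sugp1, a splicing factor, has the SP motif GGGCGGG next to the Mau2 start. The other 5 segments hold none of the 11 motifs, which says only that these letters are not in them. The Cep44/Fbxo8 segment of 42 bases stands apart in composition, with 35.7% G and C.

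Over all protein-coding genes, divergent promoters carried methylated Pontin peaks more often than other promoters. Of 1232 divergent gene pairs in the annotation, 422 (34.3%) had a member peak, and these pairs comprised 831 genes. Of the 19528 protein-coding genes with no divergent partner, 2670 (13.7%) had a peak centred within 1000 bp of a TSS. The difference was 20.6 percentage points (95% Newcombe interval 17.9 to 23.3), which counts a pair and a gene each as 1 independent site and covers the counting error over sites of 1 library, not a spread between cultures. Counted per gene, 880 of 2410 genes with a partner (36.5%, 95% Wilson interval 34.6 to 38.5) had a peak within 1000 bp of a TSS. Partner genes can share a peak, so this interval, which counts them as independent, is too narrow.

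GC content moved with the difference in occupancy. Genes with a partner had a median of 61.7% G and C in the 501 bp around their start, and genes without one 56.1%. Genes were therefore divided into 5 groups of equal size by GC content. In the group lowest in GC, 28.6% of 98 genes with a partner and 3.28% of 4356 genes without one had a peak. In the group highest in GC, the shares were 35.6% and 20.2%. Genes with a partner were thus ahead in all 5 groups. The difference within groups was 18.8 percentage points (95% interval 16.8 to 20.9, with partner genes counted as independent), against 22.8 over all genes. Genes were not filtered by expression, for which the peak list holds no value. Within the gene lists read below, the gap varied, and in several lists it was small, absent or reversed. Among splicing factors and hnRNPs, 10 of 26 pairs and 29 of 55 genes with no partner had a peak. These were 2 of 12 and 12 of 36 for proteasome genes, and 4 of 12 and 13 of 39 for autophagy machinery. DNA replication and repair genes had 20 of 54 and 31 of 86. Cytoplasmic ribosomal protein genes had 8 of 15 and 34 of 68. In the remaining lists the share of pairs was higher, as in mitochondrial ribosomal proteins with 15 of 28 and 21 of 49.

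Pairs with closer start sites were occupied more often. A peak was found at 119 of 261 pairs (45.6%) with TSSs 1 to 50 bp apart, 119 of 330 (36.1%) at 51 to 100 bp, 100 of 319 (31.3%) at 101 to 200 bp and 84 of 322 (26.1%) at 201 to 1000 bp. Occupied pairs had a median separation of 86.5 bp and the others 120.5 bp, and their means differed by -58.2 bp (95% interval -78.4 to -38.1). The rule itself favours close pairs, since a peak must lie within 1000 bp of both starts. With a window of fixed width, 500 bp to either side of the midpoint, chosen after the data were seen, the shares fell in the same order, to 39.5%, 28.5%, 27.0% and 16.5%.

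**Figure D1:**
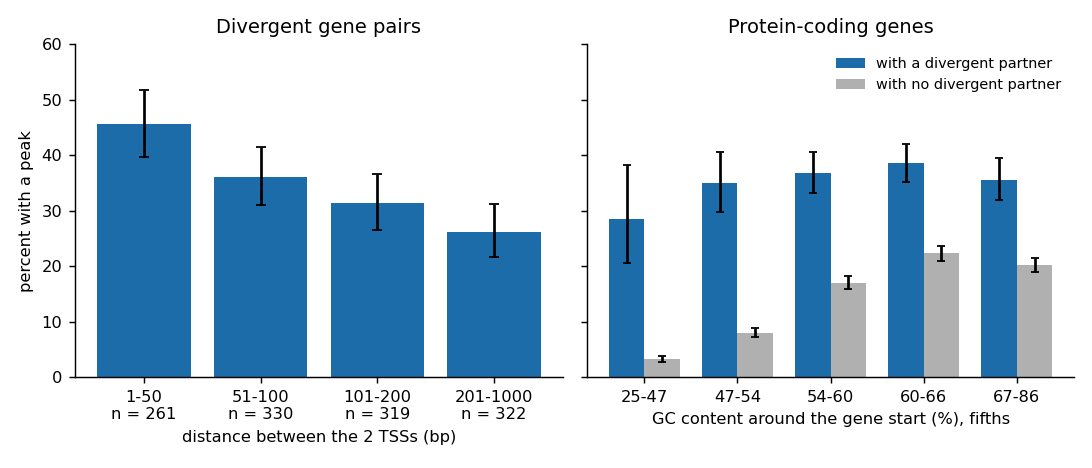
Percent of sites with a methylated Pontin peak. Left, divergent gene pairs by the distance between their TSSs in bp, falling from 45.6% to 26.1%. Right, protein-coding genes in 5 groups by the GC content around their start, where genes with a divergent partner (blue) exceed those without (grey) in each group. Bars are shares and error lines are 95% Wilson intervals, which on the right count partner genes as independent.

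The level of signal did not set the members apart. Their tag count had a median of 14.9 per 10000000 tags (quartiles 12.5 and 18.1, range 8.67 to 31.5), which equals 30.9 tags in the library, and the other TSS-proximal peaks had a median of 14.7. The ratio of geometric means was 1.01 (95% interval 0.988 to 1.04, linear model with HC3 errors across peaks). The median fold over input was 8.35 in the members and 9.19 in the others (ratio 0.949, 95% interval 0.888 to 1.01). Of the members, 225 (54.7%) reached 8-fold over input, against 57.9% of the others and 55.9% of all peaks. The fold over the surrounding 10 kb was 5.04 and 4.99 (medians; ratio 1.003, 95% interval 0.983 to 1.02).

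The 10 member peaks with the most tags lay between 25.8 and 31.5 tags per 10000000. The strongest was at Sf3b3/Cog4 (chr8:110846310-110846790), with 31.5 tags per 10000000, or 65.4 tags in the library (95% exact Poisson interval 50.5 to 83.3), and 10.2-fold over input. Sf3b3 is a subunit of the SF3b splicing complex and Cog4 of the Golgi COG complex. St13/Xpnpep3 (chr15:81399650-81400130) followed with 28.2 tags per 10000000. At Lig4/Abhd13, where Lig4 is the DNA ligase of non-homologous end joining, the level was 27.4 tags per 10000000, equal to that at Ttc13/Arv1.

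Dcun1d2/Tmco3, Mau2/Sugp1 and Armc6/Sugp2 each had 27.2 tags per 10000000, but their folds over input were 5.03, 17.6 and 35.5. Cwc27, a spliceosomal cyclophilin, and Srek1ip1 shared a peak of 26.7 tags per 10000000. Pcmt1, a protein repair methyltransferase, and Lats1, a kinase of the Hippo pathway, shared one of 26.0, and Cep44/Fbxo8 had 25.8. The counting intervals of these 10 peaks overlap, so the order among them is not resolved at this depth.

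The highest fold over input, 62.3, belonged to Brca1/Nbr1 (chr11:101551980-101552460), with 24.1 tags per 10000000. Brca1 acts in homologous recombination, and Nbr1 is a receptor for selective autophagy. The peak centre lay 71 bp inside Nbr1. Usmg5/Pdcd11 had 56.7-fold with 21.9 tags per 10000000. Aldh16a1/Pih1d1 and Fam162a/Ccdc58 had 51.7-fold each, with 19.7 and 20 tags per 10000000. Apart from this tie, the order of these peaks by fold was their order by tags. Pih1d1 is a subunit of the R2TP cochaperone, which contains Pontin and Reptin. The input tags behind a fold were not analysed here, so no error can be given for it. Whether these peaks share a low input value was not tested, so their rank by fold does not show a stronger signal.

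Chromosome 8 held 7 of the 10 strongest peaks, 9 of the top 20 and 15 of the top 50, although only 26 of the 411 members lay on it. The median member on chromosome 8 had 20.8 tags per 10000000, and the other TSS-proximal peaks there had 19.5, equal to chromosome 15 and the joint highest of all chromosomes. Members and other peaks were thus both high on chromosome 8, but on chromosome 15 the members had a median of 16.9. The part of the chromosome in these ranks was not tested further. On 10 of the 18 chromosomes with at least 10 members, the median of the members exceeded that of the other peaks.

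The X chromosome had 1 occupied pair of 31 (3.23%, 95% Wilson interval 0.572 to 16.2), Ndufb11/Rbm10 with 12.5 tags per 10000000, against 421 of 1201 autosomal pairs (35.1%). Genes on X with no partner were also seldom occupied, 28 of 888 (3.15%). On chromosome 16, 22 of 40 pairs (55%) were occupied, the highest share of any chromosome.

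**Figure D2:**
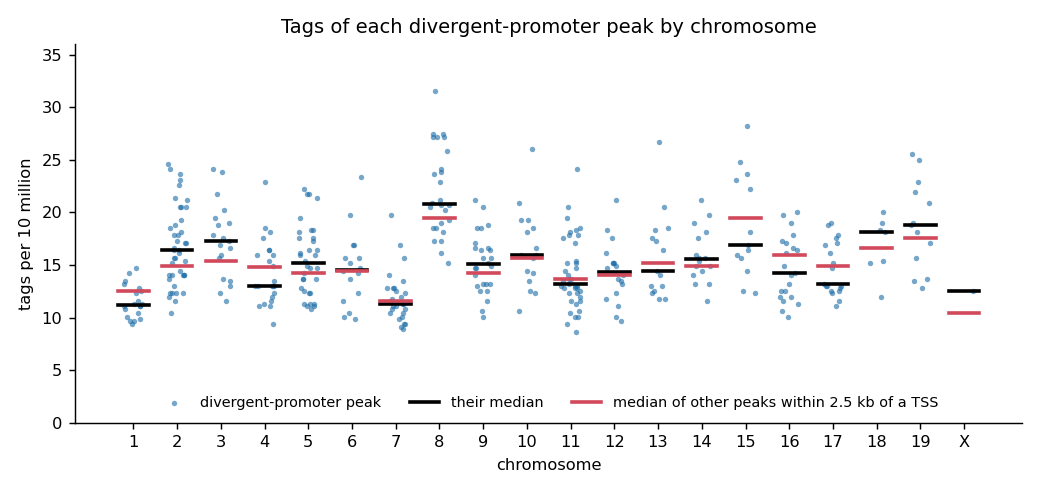
Tags per 10000000 of each of the 411 divergent-promoter peaks (blue points, spread sideways at random) by chromosome, with their median (black line) and the median of other peaks within 2.5 kb of a TSS (red line). Chromosome 8 has the highest members and the highest member median, 20.8.

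Most member peaks were centred beside the shared segment rather than on it. With the closest start sites that met the rule, 210 centres (51.1%, 95% Wilson interval 46.3 to 55.9) lay inside the minus-strand gene, 180 (43.8%) inside the plus-strand gene and 21 (5.11%) between the TSSs. A small share between them follows in part from the rule. These TSSs were a median of 85 bp apart, while a centre could lie up to 1000 bp from them. The share was 0 of 119 peaks with TSSs 1 to 50 bp apart and 20 of 77 (26.0%) at 201 to 1000 bp. Whether peaks avoid the segment was not tested. The centre was a median of 298 bp from the midpoint of the pair (quartiles 178 and 460.5). Only 29 centres (7.06%) were within 100 bp of the midpoint, whereas 102 (24.8%) were at 100 to 200 bp. In the 390 peaks centred inside a gene, the centre was a median of 248 bp downstream of the TSS used for the pair.

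The choice of start sites sets part of this picture. With the farthest qualifying TSSs in place of the closest, chosen after the data were seen, 134 centres (32.6%) lay between them and 55 (13.4%) were within 100 bp of the midpoint, while the median distance from the midpoint stayed at 292 bp. With 1 TSS per gene, its 5′ end, 13 of 245 centres (5.31%) lay between the starts.

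Other promoters had a like distribution when each gene was given 1 TSS. Then 6.12% of member centres lay within 100 bp of the midpoint and 24.1% at 100 to 200 bp, and of 2532 peaks at genes with no partner, 7.70% lay within 100 bp of the TSS and 19.2% at 100 to 200 bp. The Wilson intervals of the members (3.75 to 9.85%) and the single genes (6.73 to 8.81%) overlap within 100 bp. The peaks of single genes lay on both sides, 52.0% of them upstream. Measured to the nearest protein-coding TSS of any transcript, the low density was not seen. By that measure 168 of 411 members (40.9%) and 501 of 2625 single-gene peaks (19.1%) lay within 100 bp of a start, and the median distance of the members was 122 bp. The rule requires TSSs of both genes near a member, so its shorter distance follows in part from the rule.

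**Figure D3:**
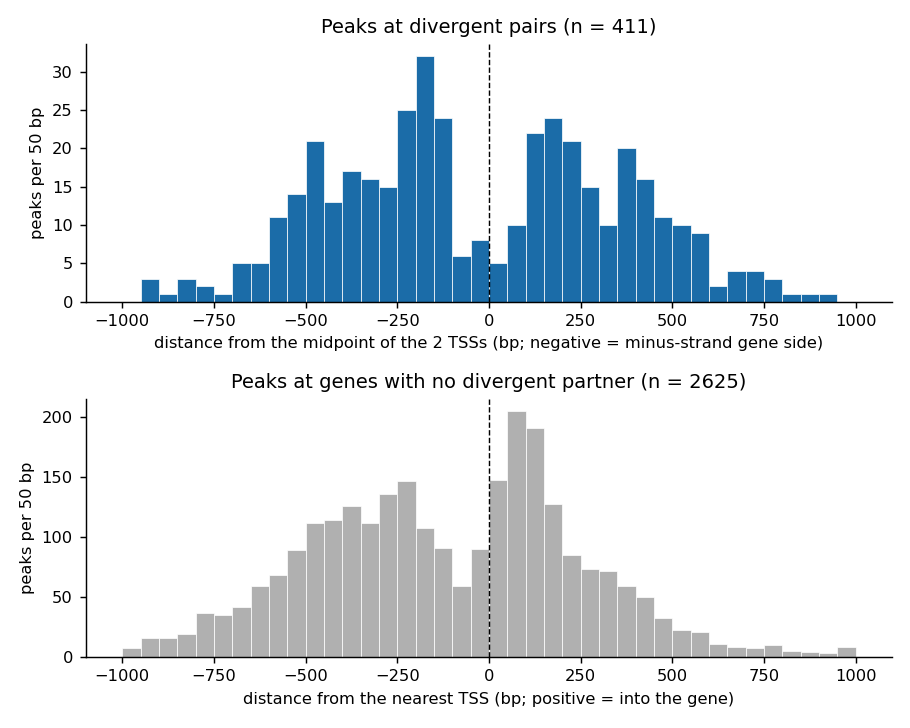
Number of peaks per 50 bp. Top, centres of the 411 member peaks by distance in bp from the midpoint of the closest qualifying TSSs, negative on the side of the minus-strand gene. Bottom, centres of 2625 peaks at genes with no divergent partner by distance from the nearest TSS of any transcript, positive into the gene. The panels use unlike measures. The members have maxima on either side of the midpoint and few peaks near it (29 of 411 within 100 bp). Of the 2625 peaks at single genes, 501 (19.1%) lie within 100 bp of the nearest TSS of any transcript. By that second measure, 168 of the 411 members (40.9%) lie within 100 bp, a share that follows in part from the rule, which requires TSSs of both genes nearby.

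Read against the annotation, 261 member centres (63.5%) lay in an exon, 139 (33.8%) in an intron and 11 (2.68%) between genes, and the 2687 other peaks within 1 kb of a protein-coding TSS had 37.1%, 28.0% and 34.9%. The rule places genes on both sides of a member, so these shares follow in part from it.

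Only 3 pairs had a listed peak on each side. At Dhx38/Txnl4b, a splicing helicase and a thioredoxin-like splicing protein, the centres lay at -466.5 and 567.5 bp from the midpoint with 21.2 and 23.6 tags per 10000000. Ccni/2010109A12Rik had 18.3 and 21.4. Its centres, at -318.5 and 584.5 bp, were closer than the authors' peak calling setting of 962 bp between peaks. That setting still limits the listing of a second, closer peak. The count therefore cannot tell whether the signal at a pair was one-sided.

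For 242 members more than 240 bp from the midpoint, the peak was compared with the window of equal width on the other side of the midpoint, a comparison added after the data were seen. The GC content was 57.7% in the peak and 55.8% in its mirror window (difference 1.93 points, 95% interval 0.287 to 3.58), and it was higher in the peak at 137 of the 242. The CpG ratio, the number of CpG dinucleotides over that given by the base composition, was 0.684 and 0.640 (difference 0.0442, 95% interval 0.00915 to 0.0792).

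The members were richer in CpG than other TSS-proximal peaks. Their GC content had a median of 59.5% against 55.3%, with a mean difference of 2.90 points (95% interval 2.003 to 3.802), and their CpG ratio a median of 0.755 against 0.632, with a mean difference of 0.130 (95% interval 0.108 to 0.152).

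Motifs were counted on both strands in the central 200 bp of each peak, and the comparison of 11 motifs was not adjusted for their number. The searched letters were GCGGGAA for E2F, CCGGAAG for ETS, NRF1 by its 8-letter palindrome, CCAATNA for NF-Y, GGGCGGG for SP, YY1 by the 8-letter AAGATGGC, ACTACAA for ZNF143, CREB by its 8-letter palindrome, TCACGTG for TFEB, GTAAACA for FOXO and TATAAA for the TATA box. In 4 of the 11 the interval of the difference left out 0. The ETS motif, bound by factors such as Gabpa, was in 36 members (8.76%) and in 4.78% of other TSS-proximal peaks (difference 3.98 points, 95% Newcombe interval 1.47 to 7.19). The NF-Y motif, a CCAAT box, was in 6 members (1.46%) against 5.12% (difference -3.66, -4.82 to -1.81), and this difference was not resolved when the whole peak was searched (-2.71, -5.70 to 0.909).

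The TATA motif was in 3.41% of members and 5.99% of the others (difference -2.58, 95% interval -4.23 to -0.217), but with GC content in the model the difference was -1.05 and its interval included 0. The FOXO motif, the element of the FOXO3a pathway that the study followed, was in 2 members (0.487%) against 1.95% (difference -1.47, 95% interval -2.13 to -0.122), and its interval included 0 under 7 of 9 alternative settings. The TFEB motif was in 8 members (1.95%) against 1.65%, and the E2F motif in 24 (5.84%) against 4.71%, differences whose intervals included 0. The NRF1 motif was in 0 of 411 members, which allows a share of up to 0.730% by a limit of 3 counts and up to 0.926% by the Wilson interval, against 0.438% of the others.

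Each of the 11 motifs had a larger share at the midpoints of occupied pairs than under the member peaks, TATA by little (3.79% against 3.41%). In the 200 bp around the pair midpoint, the ETS motif was found at 27.7% of occupied pairs, against 8.76% at the peak centres and 9.58% at the starts of all 21938 protein-coding genes. Occupied and unoccupied pairs were compared there after the data were seen. The ETS motif was in 117 of 422 occupied pairs and in 20.5% of the 810 unoccupied ones (difference 7.23 points, 95% interval 2.24 to 12.4). YY1 was in 7.58% against 3.83% (difference 3.76, 1.09 to 6.89), and NF-Y in 14.9% against 20.4% (difference -5.44, -9.68 to -0.889). FOXO was in 1.66% against 0.741% (difference 0.918, -0.297 to 2.69), an interval that includes 0. SP was frequent in both, 35.5% and 38.8%, at 27.9% of all gene starts. A match to these letters is a description of the sequence and not a measured binding site.

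**Figure D4:**
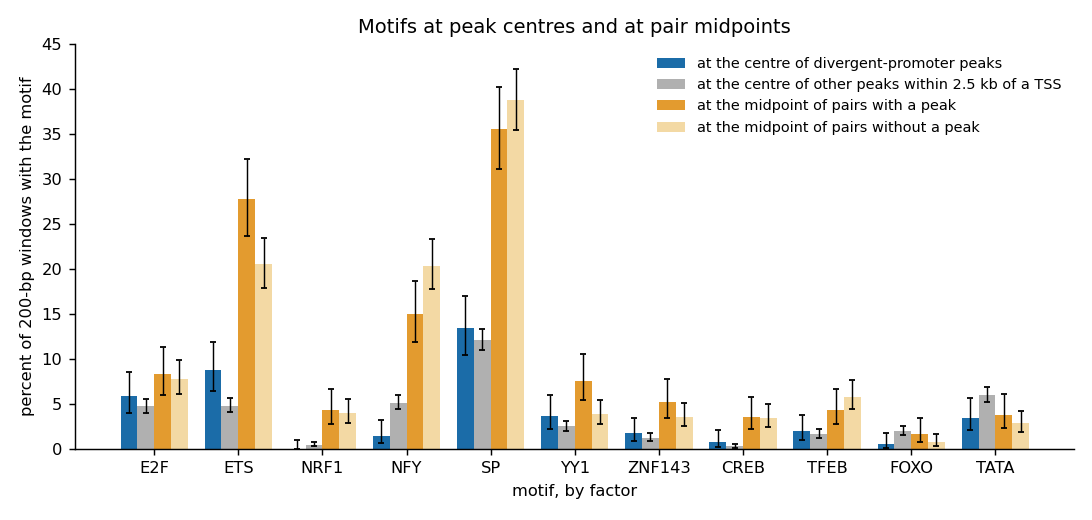
Percent of 200-bp windows that hold each of the 11 motifs, at the centre of divergent-promoter peaks (blue), at the centre of other peaks within 2.5 kb of a TSS (grey) and at the midpoint of pairs with (orange) and without (pale) a peak. Error lines are 95% Wilson intervals. SP and ETS lead at the midpoints, and ETS is higher at pairs with a peak (27.7%) than without (20.5%).

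The occupied pairs were then read by 11 gene lists, against the 34.3% of all pairs. Of the autophagy and lysosome genes that the study listed, 9 had a divergent partner and 5 of these pairs were occupied. The study chose that list from its own expression data, so the count is not independent evidence. Brca1/Nbr1 led with 24.1 tags per 10000000. Neurl2/Ctsa, where Ctsa encodes the lysosomal cathepsin A, had 20.5, and Ctns/Shpk, where Ctns encodes the lysosomal cystine transporter, had 12. Gnptg/Tsr3, where Gnptg is a subunit of the phosphotransferase that tags lysosomal enzymes with mannose 6-phosphate, had 11.6, and Idh1/Pikfyve, where Pikfyve makes an endolysosomal phosphoinositide, had 11.1. The pairs of Cln3, Sirt1, Slc26a11 and Pqlc2 had no member peak.

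These peaks ranged from strong to weak within the list. The Neurl2/Ctsa peak exceeded 89.6% of all peaks by tags, and the Idh1/Pikfyve peak 14.3%. Among core autophagy machinery genes, 4 of 12 pairs (33.3%) were occupied, a share near that of all pairs. Besides Brca1/Nbr1 these were Pi4ka/Snap29 with 14.9 tags per 10000000, where Snap29 is a SNARE of autophagosome fusion, Atg2b/Gskip with 11.8, where Atg2b is a lipid transfer protein, and Slc35a5/Atg3 with 11.3, where Atg3 is the conjugating enzyme for LC3.

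Genes of the translation machinery of mitochondria and cytoplasm were often occupied, with or without a divergent partner. Mitochondrial ribosomal proteins had 15 of 28 pairs (53.6%, 95% Wilson interval 35.8 to 70.5), led by Mrpl13/Mtbp with 24.8 tags per 10000000, Ncapd2/Mrpl51 with 19.7, Mrpl54/Apba3 with 19.3 and Mrpl43/Twnk with 18.8. Cytoplasmic ribosomal proteins had 8 of 15 (53.3%, 30.1 to 75.2), led by Rpl9/Lias with 21.7, whose partner makes lipoic acid, and Zwilch/Rpl4 with 20.5. Aminoacyl-tRNA synthetases had 6 of 9 (66.7%, 35.4 to 87.9), among them S100pbp/Yars with 22.9 and Hars/Hars2 with 18.3, where the cytoplasmic and the mitochondrial histidyl-tRNA synthetase share 1 promoter. Lrsam1/Rpl12 and Trappc4/Rps25 had 18.5 each, Lyrm4/Fars2 17.3 and Kars/Terf2ip 16.1. Among genes of these lists with no partner, 21 of 49 mitochondrial ribosomal, 34 of 68 cytoplasmic ribosomal and 13 of 27 synthetase genes had a peak, against the 13.7% of all such genes. With 11 lists and no adjustment, these intervals describe each list and call none of them particular.

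Other lists stayed nearer to the share of all pairs. DNA replication and repair had 20 of 54 pairs (37.04%), with Lig4/Abhd13 and Brca1/Nbr1 followed by Xrcc4/Tmem167 at 20.5 tags per 10000000, where Xrcc4 is the partner of Lig4, and Rad51c/Tex14 at 17.8. The respiratory chain and ATP synthase had 13 of 35 (37.1%), led by Tatdn1/Ndufb9 with 18.1 and Atp5j/Gabpa with 17.1. Gabpa encodes an ETS factor and Atp5j a subunit of ATP synthase. Ndufa5/Asb15 had 15.7 and Haus1/Atp5a1 15.2. Splicing factors and hnRNPs had 10 of 26 (38.5%), led by Sf3b3/Cog4, Hnrnpa2b1/Cbx3 with 23.4, Ttc9c/Hnrnpul2 with 22.9 and Hnrnpd/4930524J08Rik with 19.5.

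Proteasome genes had 2 of 12 pairs, Ftsj3/Psmc5 with 17.1 tags per 10000000 and Sirt3/Psmd13 with 8.91. Replication-dependent histone genes, which are mostly paired with each other, had 2 of 14, and both pairs were served by 1 peak, Bola1/Hist2h2ab with 17.6. Histone genes are near-identical copies among which reads can be split, so their share is uncertain.

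Among subunits of the complexes that contain Pontin and Reptin, 4 of 7 pairs were occupied. Brd8/Kif20a had 19.0 tags per 10000000, where Brd8 is a subunit of the Tip60 complex. Znhit1/Plod3 had 16.1, where Znhit1 is a subunit of SRCAP, Utp18/Mbtd1 had 15.2, where Mbtd1 belongs to the Tip60 complex, and Ino80e/Hirip3 had 11.6, where Ino80e belongs to INO80.

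**Figure D5:**
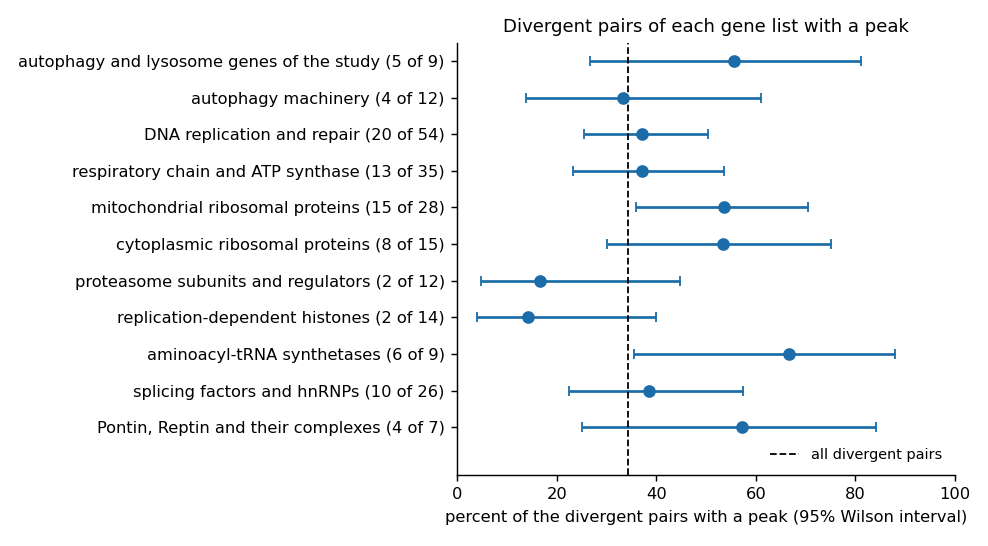
Percent of the divergent pairs of each gene list that hold a methylated Pontin peak, with 95% Wilson intervals, and the number of pairs in parentheses. The dashed line is the 34.3% of all divergent pairs. Shares run from 14.3% for histones to 66.7% for aminoacyl-tRNA synthetases, and 9 of the 11 intervals include the line.

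Long-known divergent pairs were mostly without a peak. Of 13 such pairs, 12 met the rule in the annotation, and only Brca1/Nbr1 had a member peak, against 34.3% of all divergent pairs. With so few pairs, the difference was not tested. Among those without one were Hspd1/Hspe1 of the mitochondrial chaperonin, Wrap53/Trp53, Atm/Npat, Mcm4/Prkdc, Ppat/Paics, Psmb9/Tap1, Col4a1/Col4a2, Psmb1/Tbp, Surf1/Surf2 and Hist1h2ac/Hist1h2bc. The nearest peak centre of these named pairs lay from 5189 bp away at Surf1/Surf2 to 149059 bp away at Col4a1/Col4a2. Regions below the authors' limits are not in the list, so lower signal at these pairs was not detectable here.

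The member farthest from a TSS was Eif3k/Map4k1 at 1000 bp with 11.1 tags per 10000000, and the nearest peak left out was Inca1/Kif1c at 1054 bp with 11.3. With the closest TSSs of each peak, the widest member was Alg3/Eef1akmt4 with 825 bp and 17.8 tags per 10000000, and Hist1h3c/Hist1h2bb, 1132 bp apart with 15.4, was left out. Of the members, 14 met the rule for more than 1 gene pair, and 41 occupied pairs contained a gene known only by a predicted symbol.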

How the data were processed

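MEF chromatin was profiled by ChIP-seq with an antibody to arginine-methylated Pontin. Per the labels and the file headers, the authors used Bowtie2 for alignment to GRCm38 and HOMER 4.7.2 for calling peaks of 481 bp (tag threshold 18, false discovery rate 0.001). The deposited signal is the tag count per 10000000 tags, the score is the authors' own, and the deposited focus ratio is a fraction. The fold over input and over the surrounding 10 kb is a ratio that the authors computed, with a Poisson p-value from the authors for each. They kept peaks of at least 4-fold and p at most 0.0001 in both. In the list, 1 column of tags could not be assigned to a library and was not used.

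TSSs came from GENCODE vM21, GRCm38, and sequences from the RefSeq assembly of the same build. Shares have 95% Wilson intervals and differences of shares Newcombe intervals. Means were compared by linear models with HC3 errors (statsmodels 0.14.6, SciPy 1.17.1, pandas 2.3.3, NumPy 2.4.6, Python 3.11.15, matplotlib 3.10.9). These intervals cover 1 library, not replicates. The procedures were tested on simulated data. Named pairs were the long-known pairs, the 10 strongest by tags, the 3 highest folds (4 with a tie) and up to 4 per gene list. The genes without a peak in the study's list, Idh1/Pikfyve, the X pair, pairs with 2 peaks and pairs at the limits were named after their values were seen. Members, lists and motifs were chosen with earlier results of these data known. Some named pairs are not reported here.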

Additional observations from a re-analysis of the deposited data

How the results depend on the processing

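The higher occupancy of divergent pairs kept its direction with an interval above 0 under every alternative run, with differences from 11.0 to 22.1 points, and so did the higher GC content, the higher CpG ratio and the smaller TSS separation of occupied pairs. The tag difference stayed unresolved in all. The log2 difference in fold over input left out 0 with only the 5′ end of each gene (-0.12) and with peaks at or above the median score (-0.13), and that in fold over surroundings was -0.0186 in the latter. The share centred between the TSSs (5.11%) was 2.44% with TSSs at most 300 bp apart and 32.6% with the farthest TSSs. The 4 motifs that differed were 2 with transcripts of type protein_coding and 2 in the whole peak. Unresolved motif differences changed sign: with gene 5′ ends, SP (-0.0280 points) and ZNF143 (-0.523). Within 500 bp of both TSSs these were E2F (-0.399), ZNF143 (-0.0209) and TFEB (-0.444), and with TSSs at most 300 bp apart E2F (-0.272). With peaks at or above the median score it was CREB (-0.354), with GC content as a covariate SP (-1.77), and in the whole peak NRF1 (0.328) and TFEB (-1.11). Other unresolved differences left out 0, namely CREB with gene 5′ ends (0.969) and against other peaks within 1 kb of a protein-coding TSS (0.581), YY1 within 500 bp of both TSSs (2.04) and in the peaks 8-fold or more over input (2.18), and NRF1 with GC content as a covariate (-0.488). The ETS difference was 1.94 points among peaks at least 8-fold over input, with an interval including 0. The FOXO difference was unresolved in 7 of 9 alternatives, the TATA difference in 3 and the NF-Y difference in 1. The cause of these changes was not tested. No paired analysis was possible because there was 1 library per condition. The depth, with a median of 30.9 tags per member peak, limits the order of single peaks.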
